A study of Mus musculus with 2 samples.

Results

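The genes described here are 33 enzymes and regulators of sterol and fatty acid synthesis, picked by gene symbol from a named list and found among 55536 gene identifiers. They comprise 18 enzymes of the route from acetyl-CoA to cholesterol, the sterol transfer protein gene Stard4, 5 genes of the machinery that controls both routes, and 9 enzymes that build, desaturate or elongate fatty acids. All 33 symbols matched 1 gene each, and the rule that picks them reads symbols only. The contrast of interest is the sterol branch against the fatty acid branch.

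Both branches start from acetyl-CoA and draw on the same family of transcription factors. The sterol regulatory element-binding proteins, encoded by Srebf1 and Srebf2, are made as membrane precursors that SCAP escorts from the endoplasmic reticulum to the Golgi for cleavage, and INSIG proteins hold SCAP back when sterols are plentiful. Srebf2 is known chiefly for cholesterol synthesis genes and Srebf1 for fatty acid genes, and the liver X receptors raise Srebf1 and some of its targets. In macrophages both routes have been tied to inflammatory activation, because membrane sterol and unsaturated fatty acid content bear on Toll-like receptor signalling.

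RNA with polyA tails from whole cells was sequenced from primary macrophages grown from the bone marrow of C57BL/6J mice, in 1 group with 2 biological replicates. By the free-text label, the cells had 12 h of Lipid A at 100 ng/ml, then 12 h of rest after washing, then a further 300 min of Lipid A at the same 100 ng/ml. Lipid A is the part of bacterial lipopolysaccharide to which Toll-like receptor signalling responds. A separate label field for the treatment gives lipoprotein A of the type protein, and which name is right could not be decided. Both libraries carry 1 donor identifier with separate biosamples, and sex and age were not collected, so animals may vary more than these libraries do. No untreated or singly treated library was used here, so nothing below is a response to the treatment, and with 2 libraries of 1 group no test between conditions was possible.

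The libraries held 50503159 (replicate 1) and 46342331 (replicate 2) expected counts over genes, and 12543 genes, all 33 members among them, had enough reads to be compared between the libraries. All 16 macrophage markers reached 10 TPM in each library. Their median was 1647.2 TPM over both libraries, 1798.3 in replicate 1 and 1334.1 in replicate 2. Lyz2, Ctss and Fcer1g were the highest, at means of 10751.3, 4221.5 and 3178.1 TPM. By count 12 of the 16 were higher in replicate 1, against 6266 of the 12543 genes compared. The other 4 were higher in replicate 2, among them Cd14, at 347.9 and 690.7 TPM. Of 10 adipocyte markers 6 were listed at 0 in both libraries, Adipoq and Plin1 among them, while Fabp4 stood at 63.66 and 38.45 TPM, Lipe at 18.27 and 18.42 and Pparg at 4.84 and 3.30. Of 8 hepatocyte markers 7 were listed at 0, and the dendritic and stromal lists summed to 6.00 TPM or less in each library. The 10 lymphoid markers summed to 43.87 and 40.22 TPM, of which Cd4 made up 42.85 and 40.15. The libraries also differed in genes listed as markers of other cells. The 8 erythroid and megakaryocyte markers summed to 259.6 TPM in replicate 1 and 117.7 in replicate 2, chiefly from Pf4. Hba-a1 and Hbb-bs were at 0 in both, Itga2b stood at 0.55 and 0.36 TPM and Gp9 at 0.13 and 0.19. Which cells the Pf4 reads came from was not tested. The 10 neutrophil markers summed to 67.92 TPM and 4.46 TPM, with Ly6g at 0 in both, while the 7 endothelial markers summed to 15.68 and 49.36, chiefly from Kdr, with Cldn5 at 0 in both. In bulk RNA such as this, fewer cells of a type and less RNA per cell cannot be told apart.

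Promoter sequence sets the branches side by side before any level. RefSeq promoters on GRCm38.p6, each running from 250 bases before a start to 50 after it, matched 26 of the 33 genes, namely 15 sterol enzymes, 6 fatty acid enzymes and all 5 regulators. Fdps, Fdft1, Sqle, Stard4, Scd1, Scd2 and Fads1 had no promoter entry. The windows shown are 200 bases long, 5′ to 3′ on the gene's strand, and stop short of annotated exons. They were picked because Hmgcs1 was the only one of the 26 with the full sterol regulatory element, Lss is a sterol enzyme without it, Insig1 is the sensor gene, and Fasn stands for fatty acid synthesis. Hmgcs1 is chr13:119690151-119690350 on the plus strand, Lss chr10:76531388-76531587 plus, Insig1 chr5:28071163-28071362 plus, and Fasn chr11:120824548-120824747 minus. Capitals mark matches, on either strand, to the motifs whose letters are spelled out after them.
Hmgcs1: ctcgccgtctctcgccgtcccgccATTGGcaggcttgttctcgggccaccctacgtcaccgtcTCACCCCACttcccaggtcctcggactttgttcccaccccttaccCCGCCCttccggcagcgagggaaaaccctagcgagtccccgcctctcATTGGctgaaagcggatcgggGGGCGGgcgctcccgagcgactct
Lss: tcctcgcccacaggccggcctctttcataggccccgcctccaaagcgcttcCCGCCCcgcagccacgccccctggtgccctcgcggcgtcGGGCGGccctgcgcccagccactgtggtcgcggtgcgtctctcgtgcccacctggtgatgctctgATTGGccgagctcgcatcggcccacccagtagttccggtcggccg
Insig1: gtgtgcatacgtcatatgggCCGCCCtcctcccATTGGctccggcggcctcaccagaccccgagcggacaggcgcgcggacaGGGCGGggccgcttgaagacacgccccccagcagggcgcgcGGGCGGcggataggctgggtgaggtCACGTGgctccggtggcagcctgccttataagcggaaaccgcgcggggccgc
Fasn: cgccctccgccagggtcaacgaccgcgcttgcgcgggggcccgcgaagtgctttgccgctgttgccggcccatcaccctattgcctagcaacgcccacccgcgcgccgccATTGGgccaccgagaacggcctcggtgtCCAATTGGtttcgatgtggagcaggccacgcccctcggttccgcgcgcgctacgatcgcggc

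The full sterol regulatory element, TCACNCCAC, was found in 1 of 26 members, at 137 bases before the Hmgcs1 start, and in 1.44% of all 27025 genes with a promoter. Its shorter form CACNCCAC, which lies inside the full one, was found in 3 of 26, Acat2, Hmgcs1 and Insig1, against 7.12% of all genes. The Insig1 match, at position -9 from the start on the opposite strand, lies outside the window shown. None of the 6 fatty acid enzymes with a promoter entry held either form, which at these background shares is no difference between the branches. In the common promoter elements the sterol share was the higher, though only 6 fatty acid enzymes could be counted and their shares lay near those of all genes. The CCAAT box, bound by NF-Y, was present in 14 of 15 sterol enzymes and 3 of 6 fatty acid enzymes, against 41.1% of all genes. The GC box GGGCGG, bound by Sp1, was present in 14 of 15 sterol and 2 of 6 fatty acid enzymes, against 38.2% of all genes. The E-box CACGTG was present in 6 of 26 members, Hsd17b7, Sc5d, Dhcr7, Scap, Insig1 and Elovl5, against 8.09%. These counts take a gene as holding a motif if any of its promoters does. All genes here means all those with a promoter, not only those with enough reads to be compared. Counted by promoter, CCAAT was in 14 of 18 sterol and 3 of 7 fatty acid promoters against 37.4% of all promoters, and GGGCGG in 15 of 18 and 3 of 7 against 35.7%. A match describes the letters in these windows only, and no match says nothing about a factor.

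The sterol enzymes lay closer together in level than the fatty acid enzymes. Its 18 enzymes had a median level of 17.45 TPM in replicate 1 and 20.64 in replicate 2 (19.05 ± 2.256, SD, n = 2), where TPM is transcript abundance scaled by length and to a fixed library total. The 9 fatty acid enzymes had medians of 7.14 and 8.79 TPM (7.965 ± 1.167, SD, n = 2), and all 12543 genes compared 10.73 and 10.95. On the log2(TPM + 1) scale the fatty acid median minus the sterol median was -1.18 in replicate 1 and -1.14 in replicate 2. The order of the medians depends on which fatty acid genes are counted, because that branch fell into a low and a high set. In both libraries Elovl6, Scd1, Fads2, Fasn and Acaca, 5 of 9, lay below the sterol median and Elovl5, Scd2, Fads1 and Elovl1, 4 of 9, above it, with no member between 8.79 and 26.58 TPM. Without Scd1 and Fads2, the members that differed most between the libraries, the fatty acid median was 26.58 and 32.58 TPM, above the sterol median, and the log2 difference was 0.58 and 0.63. The members of a branch are not replicates, and the comparison carries no test.

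Every sterol enzyme was at 1 TPM or more in both libraries, and 13 of 18 reached 10 TPM. Of the fatty acid enzymes 7 of 9 reached 1 TPM and 4 of 9 reached 10 TPM. The level of 1 TPM was reached by 31 of all 33 members, against 83.9% of the genes compared. Over all 33 members 22 reached 10 TPM in both libraries, against 49.7% of the genes compared. A level of 100 TPM was reached by 1 of 33, Elovl1, against 9.84% of the genes compared. From lowest to highest mean, the sterol enzymes spanned 18.44-fold, from Hsd17b7 to Msmo1, and the fatty acid enzymes 235.9-fold, from Elovl6 to Elovl1. The interquartile range on the log2 scale was 1.56 and 1.27 for the sterol branch in replicates 1 and 2, 3.39 and 2.74 for the fatty acid branch, and 3.37 and 3.35 for all genes compared.

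The summed level shows how far single genes carried each branch. Summed TPM was 463.2 and 499.4 for the sterol enzymes and 262.9 and 299.8 for the fatty acid enzymes. Msmo1, the highest sterol enzyme, supplied 20.4% and 18.7% of its branch. Elovl1 supplied 52.0% and 44.8% of the fatty acid sum, so the branch total rested far more on 1 gene.

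**Figure D1:**
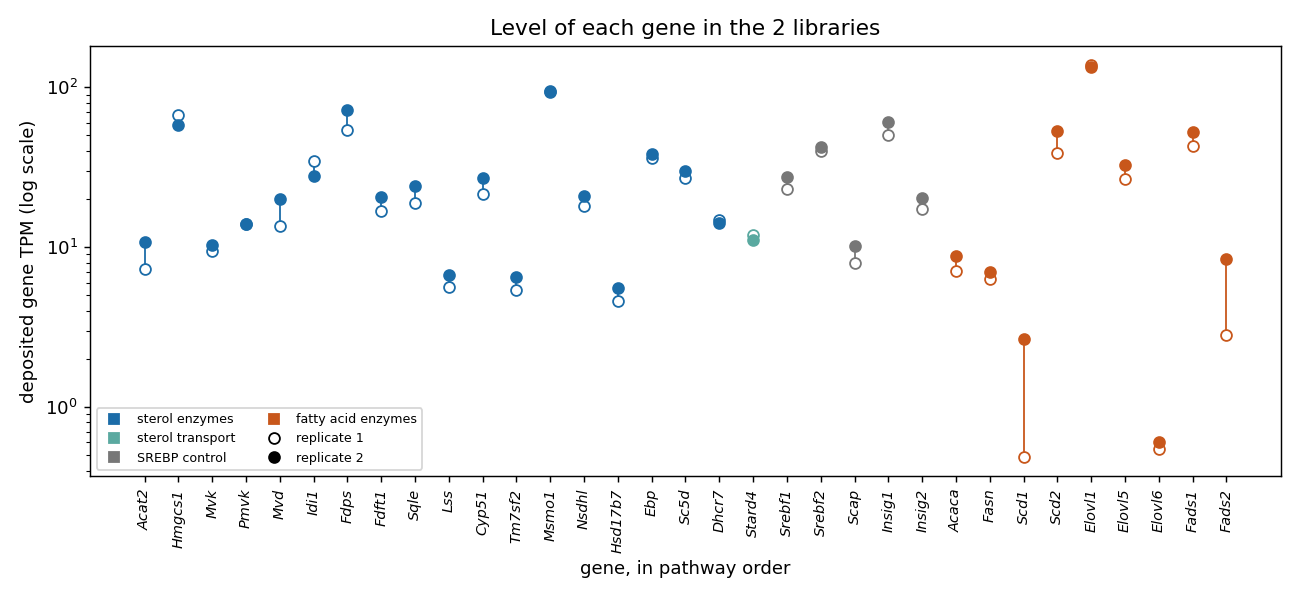
Deposited gene TPM (log axis) of each of the 33 genes in pathway order, with open circles for replicate 1, filled circles for replicate 2, a line joining them and colours for the branches. Sterol enzymes lie between 4.58 and 94.36 TPM, while the fatty acid enzymes run from 0.49 TPM for Scd1 in replicate 1 to 136.8 TPM for Elovl1.

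At the entry to the sterol branch, Hmgcs1, the synthase that makes HMG-CoA (ENSMUSG00000093930.2, chr13:119690379-119708260, mm10), stood at 66.64 TPM in replicate 1 and 57.87 in replicate 2. Acat2, the cytosolic thiolase that supplies its acetoacetyl-CoA, stood at 7.29 and 10.78 TPM. Hmgcs1 was the higher of these in both libraries, by 3.03 and 2.32 on the log2(TPM + 1) scale. Acat2 was higher in replicate 2, with 512 and 710 counts and a log2 difference in library-scaled counts of 0.59 (exact 95% counting interval 0.42 to 0.75), and Hmgcs1 was lower there, at -0.22 (-0.27 to -0.16). These intervals cover counting error only and not the spread between cultures, since each sets 1 library against 1 library. Reads were also not tagged by molecule, which the intervals do not take into account.

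From mevalonate to farnesyl diphosphate, Fdps, the synthase at the branch point to sterols and isoprenoids, was highest, at 54.32 and 72.43 TPM. Idi1, the isomerase of isopentenyl diphosphate, followed at 34.77 and 27.78 TPM. The kinases that act in sequence were lower, with Mvk at 9.48 and 10.24 TPM and Pmvk at 14.02 and 14.05. Mvd, the decarboxylase between Pmvk and Idi1, stood at 13.65 and 19.97 TPM. Mvd and Idi1 lay apart in opposite directions: Mvd was higher in replicate 2 by a log2 count difference of 0.54 (0.40 to 0.68) and Idi1 lower by one of -0.28 (-0.35 to -0.20). A predicted gene, Gm43738, shares 1124 of 4208 exon bases with Fdps on the same strand and was listed at 0 in both libraries. The difference between Idi1 and Mvd in log2(TPM + 1) was 1.29 in replicate 1 and 0.46 in replicate 2, with Idi1 the higher in both.

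Squalene synthesis and its closure to the first sterol showed a step down at the end. Fdft1, squalene synthase, stood at 16.84 and 20.54 TPM and Sqle, the squalene epoxidase that is a rate-limiting step of the pathway, at 19.01 and 24.00 TPM. Lss, which closes the ring to lanosterol, stood at 5.63 and 6.67 TPM. Sqle exceeded Lss by 1.59 and 1.70 in log2(TPM + 1), while Sqle and Fdft1 were 0.17 and 0.21 apart. All 3 were higher in replicate 2, by log2 count differences of 0.25 to 0.33. The Fdft1 level is uncertain because 774 of its 4227 exon bases (18.31%) lie opposite exons of Ctsb, a lysosomal protease gene at 7256.57 and 8793.63 TPM, and the strand handling of the counts is not given in the sources used here.

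Among the 8 enzymes between lanosterol and cholesterol, Msmo1, which oxidises methyl groups off the ring, was highest at 94.36 and 93.14 TPM. Ebp, the sterol isomerase, stood at 35.93 and 38.00 TPM. The lowest were Tm7sf2, a sterol reductase, at 5.41 and 6.50 TPM, and Hsd17b7, the keto-reductase that completes removal of a methyl group, at 4.58 and 5.59. Msmo1 and Hsd17b7 thus differed 18.44-fold in mean level although they act in the same demethylation sequence. Nsdhl, the decarboxylating dehydrogenase of that sequence, stood at 18.07 and 20.75 TPM. Cyp51, the lanosterol demethylase, stood at 21.42 and 27.11. The final desaturase Sc5d, at 27.03 and 29.78 TPM, exceeded the final reductase Dhcr7, at 14.76 and 14.20, and the log2(TPM + 1) of Dhcr7 minus Sc5d was -0.83 and -1.02. Exons of Tm7sf2 share 532 of 4403 bases with Vps51 on the same strand, at 30.25 and 32.07 TPM, so its level depends on how shared reads were assigned. Stard4, which carries sterol between membranes and acts after synthesis, stood at 11.93 and 11.07 TPM and was lower in replicate 2 by a log2 count difference of -0.16 (-0.26 to -0.07).

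The regulators were of the same order as the sterol enzymes, with a median of 23.11 and 27.34 TPM. Insig1, the sensor gene that is itself an SREBP target, was highest, at 50.05 and 60.23 TPM, and its paralogue Insig2 stood at 17.40 and 20.22. Srebf2 stood at 39.97 and 42.26 TPM and Srebf1 at 23.11 and 27.34. Scap, the escort, was lowest, at 7.98 and 10.11 TPM. Srebf2 was above Srebf1 by 0.76 and 0.61 in log2(TPM + 1), and Insig1 above Insig2 by 1.47 and 1.53, with the same order in both libraries. Scap had the widest log2 count difference of the 5, 0.51 (0.39 to 0.63), higher in replicate 2. By counts Srebf1 and Srebf2 were nearly equal between libraries, at -0.01 (-0.10 to 0.07) and 0.04 (-0.01 to 0.09).

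The genes that commit carbon to fatty acids were low. Acaca, the acetyl-CoA carboxylase, stood at 7.14 and 8.79 TPM, and Fasn, fatty acid synthase, at 6.33 and 6.99. Both lay below the median of all genes compared in each library. Hmgcs1 exceeded Fasn by 3.21 and 2.88 in log2(TPM + 1), or 10.53-fold and 8.279-fold in TPM, but this pair sets unlike steps side by side. Acat2, the sterol enzyme before Hmgcs1, stood at 7.29 and 10.78 TPM, near Acaca. Fasn was below Acaca by -0.15 and -0.29.

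Elongases held both ends of the range. Elovl1, which elongates saturated very long chain acyl-CoA for sphingolipids, stood at 136.8 and 134.4 TPM, above 91.8% of the genes compared. Elovl5, which elongates polyunsaturated chains, stood at 26.58 and 32.58 TPM. Elovl6, which extends palmitate and is the elongase most closely tied to new fatty acid synthesis, stood at 0.55 and 0.60 TPM from 80 and 74 counts, above 8.98% of the genes compared. At this count the log2 difference of Elovl6 between libraries, 0.00, had an interval from -0.47 to 0.48. Elovl1 was within its counting interval of no difference, at -0.05 (-0.11 to 0.00).

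The desaturases came in related pairs on chromosome 19 with unequal members. Scd2 (ENSMUSG00000025203.6, chr19:44293674-44306864, plus strand), a stearoyl-CoA desaturase that makes monounsaturated acids, stood at 39.03 and 52.89 TPM from 7361 and 9107 counts. Scd1 (ENSMUSG00000037071.3, chr19:44394455-44407879, minus strand), the isoform known from liver and fat, stood at 0.49 and 2.65 TPM from 74 and 401 counts. Scd2 was the higher in both libraries, 79.65-fold in replicate 1 and 19.96-fold in replicate 2 by TPM. The same held for the polyunsaturated desaturases: Fads1 (ENSMUSG00000010663.5, chr19:10182888-10196877, plus strand) stood at 43.13 and 52.48 TPM, and Fads2 (ENSMUSG00000024665.8, chr19:10062765-10101746, minus strand), which acts before it on dietary precursors, at 2.81 and 8.41 TPM from 294 and 805 counts. Fads1 was above Fads2 in both, with the log2(TPM + 1) of Fads2 minus Fads1 at -3.53 and -2.51. Between the deposited quantifications the log2 of mean TPM differed by 0.12 for Scd1 and -0.06 for Scd2 (second minus first), and the sharing of reads between these closely related genes was not tested.

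**Figure D2:**
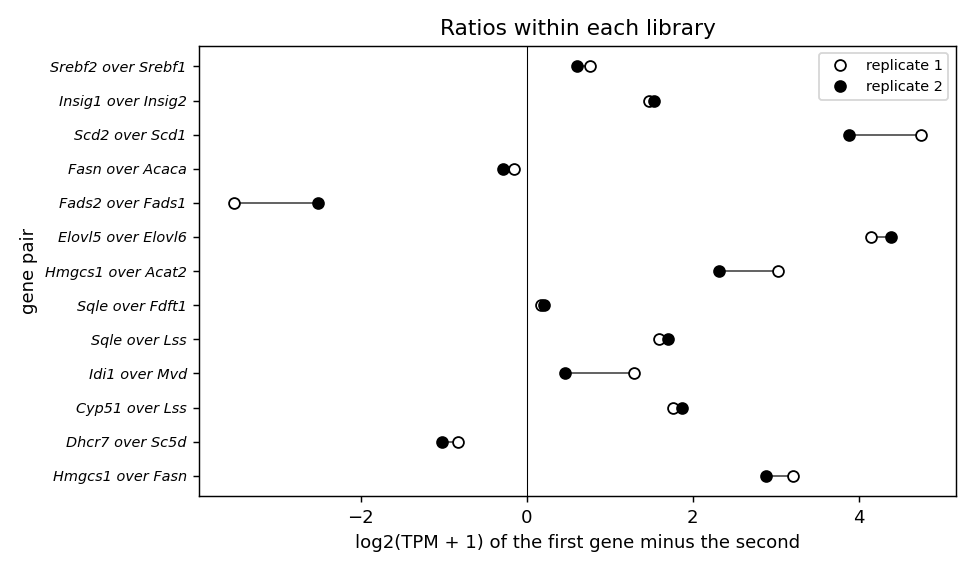
Log2(TPM + 1) of the first gene minus the second for 13 pairs within each library, open circles for replicate 1 and filled for replicate 2, joined by a line. The sign was the same in both libraries for every pair, with the first gene higher in 10 and the second in 3, and the longest lines belong to Fads2 over Fads1 and Scd2 over Scd1.

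Scd1 and Fads2 were also the only members 2-fold or more apart between the libraries. The log2 difference in scaled counts of replicate 2 minus replicate 1 was 2.55 for Scd1 (2.19 to 2.93, 5.84-fold) and 1.57 for Fads2 (1.38 to 1.77, 2.965-fold). Both were higher in replicate 2, so 2 of 33 members passed the line in that direction against 2.30% of the genes compared, and 0 of 33 passed it toward replicate 1 against 1.91%. Only 13 genes of 12543, Scd1 included, lay as far apart as Scd1, and 131 as far as Fads2. With 1 TPM added to both levels, which damps low genes, the log2 difference of Scd1 was 1.29 and that of Fads2 1.30. Among markers of other cells, Kdr, at 10.96 and 41.63 TPM, and Vwf, at 1.35 and 4.56, were higher in replicate 2 too. The endothelial list did not move as a whole: Cdh5 was lower in replicate 2, at 1.38 and 0.87 TPM, and Pecam1 stood at 1.96 and 2.23. Higher in replicate 1 were Pf4, at 255.6 and 116.3 TPM, Ppbp, at 3.34 and 0.70, S100a8, at 23.12 and 1.57, and S100a9, at 37.85 and 2.23. The 10 adipocyte markers summed to 86.91 and 60.17 TPM, a sum and a difference that came chiefly from Fabp4, with Adipoq, Plin1, Cidec, Lep, Cfd and Adrb3 at 0 in both. The part of those other markers in the Scd1 and Fads2 differences was not tested.

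The rest of the set lay close between libraries, with a small lean to replicate 2. A difference of 1.5-fold or more was seen in 3 of 33 members, Acat2, Scd1 and Fads2, against 13.2% of the genes compared. The median log2 difference was 0.22 over the sterol enzymes, 0.28 over the fatty acid enzymes, 0.11 over the regulators and 0.00 over all genes compared. By count 13 of 18 sterol and 8 of 9 fatty acid enzymes were higher in replicate 2, against 6277 of the 12543 genes compared. Without Scd1 and Fads2 the fatty acid median log2 difference was 0.25. Both branches thus leaned the same way, and up to 2 members close to no difference changed sign under another setting. The counting interval left out 0 for 22 of 33 members, against 57.8% of the genes compared, a share not far from the background at this depth. Of the members 19 were higher in replicate 2, against 28.4% of the genes compared, and 3, Hmgcs1, Idi1 and Stard4, higher in replicate 1, against 29.5%.

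**Figure D3:**
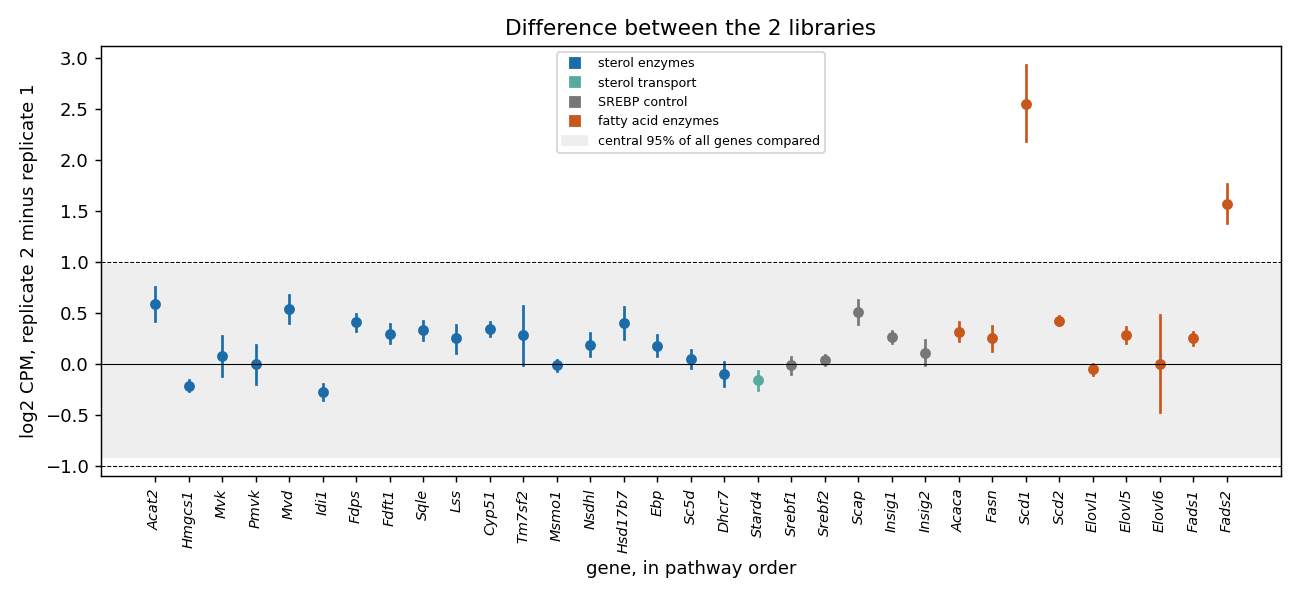
Log2 CPM of replicate 2 minus replicate 1 for the 33 genes, with bars for the exact 95% counting interval, dashed lines at 2-fold and a grey band for the central 95% of all 12543 genes compared (-0.91 to 0.97). Only Scd1 and Fads2 lie outside the band.

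The members differed in how much of their level came from coding transcripts. The leading transcript was annotated protein_coding for all 33 members, and it was the same in both libraries for 32, all but Elovl6. Coding transcripts held 90% or more of the gene's TPM, as a mean of the libraries, in 26 members. The 7 below that line were Lss, Msmo1, Hsd17b7, Ebp, Srebf1, Srebf2 and Fasn. In the second quantification 7 were below it as well, 6 of them the same, with Tm7sf2 at 88.9% in place of Msmo1 at 92.7%. Fasn was the lowest, with 49.3% and 52.3% coding, since the short retained-intron transcripts Fasn-202 and Fasn-203 took 26.4% and 24.3% in replicate 1 and 24.6% and 23.1% in replicate 2. Its coding TPM was 3.12 and 3.66. The second deposited quantification put retained-intron transcripts at 22.9% of Fasn, as a mean, and had Fasn-205 rather than Fasn-201 in the lead, so which Fasn transcript leads depends on the method.

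Srebf2 held 26.7% and 30.8% of its level as retained-intron transcripts, chiefly Srebf2-205, and the second quantification gave 28.8% as a mean. Its coding level of 29.31 and 29.23 TPM still exceeded the coding level of Srebf1, 18.46 and 17.74. Srebf1 shows why TPM and counts can differ for 1 gene: its TPM was higher in replicate 2 by 0.24 on the log2 scale while its counts were not, at -0.01. The 662-nt processed transcript Srebf1-210 went from 3.36 TPM in replicate 1 to 8.17 in replicate 2, and the full-length Srebf1-201 stood at 13.09 and 14.01. The only Srebf1 transcript annotated at the most upstream start of the gene, the 367-nt Srebf1-204, stood at 0 and 1.00 TPM. Among the sterol enzymes the non-coding remainder was a processed transcript in Msmo1, with Msmo1-206 at 20.1% and 18.1% but a mean of 2.88% in the second quantification, and a retained intron in Ebp, with Ebp-204 at 21.7% and 11.6%. Fads1-202, a coding transcript, took 13.1% and 33.8% of Fads1 in the first quantification, and its mean share was lower in the second, where Fads1-201 held 93.1% as a mean.

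**Figure D4:**
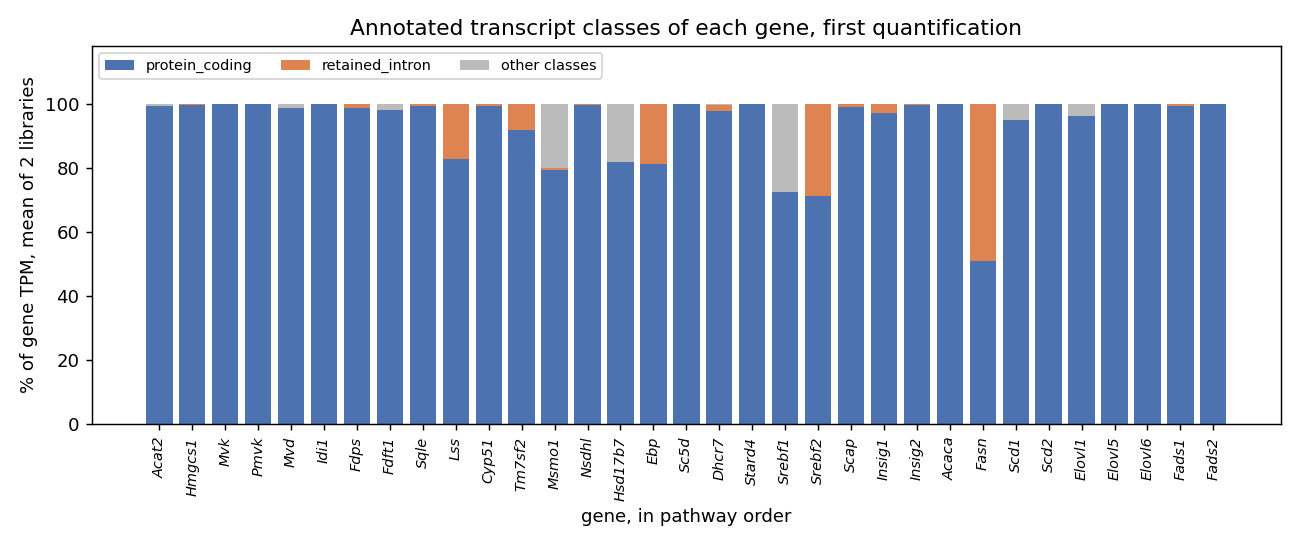
Share of each gene's TPM in annotated transcript classes, as the mean of the 2 libraries in the first quantification, stacked to 100%. Fasn stands apart with 49.2% in retained-intron transcripts, followed by Srebf2 at 28.8%, while 26 genes are 90% or more protein_coding.

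In wider lists of genes outside the 33, which differ in make-up, the sterol median was again above the fatty acid one. Of 23 other sterol genes, covering precursor supply, uptake, trafficking and storage, 14 were at 10 TPM or more in both libraries and the median was 18.46 TPM. The highest were Npc2, which hands lysosomal cholesterol on, at 817.1 and 969.0 TPM, Por, the electron donor of Cyp51 and Sqle, at 247.5 and 151.0, and Soat1, which esterifies cholesterol, at 156.0 and 160.7. Por was the lower in replicate 2 while Cyp51 and Sqle were the higher. The 34 other fatty acid genes had a median of 7.867 TPM, with 15 at 10 TPM or more. Another 10 were under 1 TPM in each library, 4 of them listed at 0, against 3 and 2 of the 23 other sterol genes. The gap between these medians thus rests partly on near-absent genes. The highest were the acyl-CoA synthetase Acsl1, at 148.1 and 203.7 TPM, the elongation cycle reductase Hsd17b12, at 154.8 and 166.8, and the ceramide desaturase Degs1, at 112.8 and 143.1. None of the 21 sterol and 27 fatty acid genes with enough reads was 2-fold apart between libraries, beside 2.30% and 1.91% of all genes compared in the directions of replicates 2 and 1, so few or none is near the background.

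Other genes listed for SREBP processing, turnover, partners and liver X receptors numbered 21, with a median of 23.12 TPM. Of them 18 were at 10 TPM or more in both libraries. The highest in this list was Trim30a, at 308.6 and 291.7 TPM, a TRIM family gene whose link to SREBP control was not tested here. Next came the segregase Vcp, at 184.1 and 200.1, and Nr1h3, which encodes a liver X receptor, at 226.2 and 129.7. The list of 20 liver X receptor targets, which holds Srebf1, Scd1, Scd2 and Fasn, leaned toward replicate 1. Its median log2 count difference was -0.20, and 6 of 18 were higher in replicate 2, against 6277 of the 12543 genes compared. Apoe, the lipid carrier, stood at 7829.7 and 3436.0 TPM, a log2 count difference of -1.19, and Pltp and Cd5l stood at 498.1 and 266.2 and at 260.6 and 161.1. Scd1 and Scd2 therefore lay on the opposite side from Apoe and Nr1h3 between these libraries.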

How the data were processed

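The authors deposited expected counts, TPM and FPKM per gene and per transcript (the first quantification), and a second transcript table with estimated counts and TPM, per the file headers. The README files give mm10 and GENCODE M21. Not given in the sources used here: aligner, quantifiers and strand handling. Another 26345 entries of the gene tables, which name no gene, were left out. Expected counts were rounded and scaled by TMM in edgeR 4.0.16 (R 4.3.3) after filterByExpr, with a prior count of 0.5. DESeq2 1.42.0 gave other size factors. Exact 95% binomial intervals of count ratios cover counting error only. A count of 0 allows up to 3 counts, or 0.0594 and 0.0647 CPM in replicates 1 and 2. Levels are the deposited TPM, with a pseudocount of 1 on the log2 scale. The deposited FPKM served as an alternative. Python 3.11.15 and pandas 2.3.3 were used for tables, and the ratio calculation was tested on simulated data. Where exons of a member overlapped another gene, the shared bases were counted from GENCODE M21.

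Members, pairs and lists were chosen with earlier results of these data known. Any member could be named, with full values for the highest and lowest of each step, all regulators and fatty acid genes, and members 1.5-fold apart. Of the other pathway lists the 3 highest were named, with genes 2-fold apart at a mean count of 100 or more. The same rule held for the marker lists, except that most markers under 5 TPM are covered by their list's sum. Markers listed at 0, Cd14, Cdh5 and Gp9 were named in addition. The labels do not say that the libraries came from separate animals, so their spread may be technical. A planned comparison of protein sequences was not run, since no protein table was used here.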

Additional observations from a re-analysis of the deposited data

How the results depend on the processing

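With 1 group of 2 libraries nothing here was tested, and values describe these libraries only. No paired analysis was possible because there is 1 group. Leaving out each library in turn gave sterol medians of 17.45 to 20.64 TPM, fatty acid medians of 7.14 to 8.79 TPM, a branch difference of -1.18 to -1.14, and summed levels of 463.2 to 499.4 and 262.9 to 299.8 TPM. The fatty acid minus sterol difference in median log2(TPM + 1), -1.16 as a mean, reversed to 0.61 without Scd1 and Fads2, where the fatty acid median was 29.58 TPM. It kept its sign in the other alternatives, at -1.03 in the second quantification, -1.13 with Stard4 among the sterol enzymes, -1.38 with only Acaca, Fasn, Scd1, Scd2 and Elovl6, whose median was 6.66 TPM, -1.25 with a pseudocount of 0.1 TPM and -1.13 from FPKM. The sterol sum was 453.9 TPM in the second quantification. The reversal without Scd1 and Fads2 follows from the gap between the low and high fatty acid genes. Why the other values moved was not tested. Scd1 and Fads2 remained the only members 2-fold apart in all 7 alternatives to the count ratio, from 1.29 to 2.57 and 1.30 to 1.58 on the log2 scale, while genes that far apart numbered 528 as reported, 5481 of 19730 without the filter on low counts, 194 of 10065 at a mean count of 100 or more, 179 from TPM + 1 and 726 in the second quantification. Coding transcripts alone, the fatty acid branch without Scd1 and Fads2 (levels and ratios), and TPM ratios without a pseudocount were added after seeing the data. Low counts limit Scd1 in replicate 1 and Elovl6.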
